A study of Homo sapiens with 6 samples.

Results

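The transcriptome described here is that of A549 cells in the libraries titled Vector, the group without added GPX3. A549 is an established human line from a lung adenocarcinoma, grown as an adherent culture. The members were chosen by title alone: the libraries Vector_1, Vector_2 and Vector_3, which are 3 of the 6 libraries of the series, and no measured value entered the choice. The other group, titled OE_GPX3, is set to carry more of the glutathione peroxidase gene GPX3 and was not used. The labels give the Vector libraries the genotype WT and the treatment WT, and name neither the vector nor the way it was introduced. Separate cultures for the 3 replicates are not stated, so the spread given below may be technical in part. RNA was taken up in TRIzol, and the labels' library text describes an enrichment of small RNAs.

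A cell line keeps some of the program of the tissue it came from and loses the rest. Alveolar type 2 cells, which A549 is often used to stand in for, make pulmonary surfactant from secreted proteins and phospholipids under the transcription factor NKX2-1. A549 is known to carry changes in STK11, KEAP1 and SMARCA4 and to have lost CDKN2A. KEAP1 is the adaptor that sends NRF2, the master factor of antioxidant and detoxifying genes, to degradation, so lines with defective KEAP1 are known for high levels of NRF2 target transcripts. These points are background, and counts per gene do not show sequence changes.

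Levels are given as the deposited FPKM, read fragments scaled by gene length and by library size, which can be compared between genes. The length in the deposited table is the summed exons of all annotated transcripts of a gene, so a gene with many long or rarely used exons has a lower FPKM than its main transcript alone would give. Values of the 3 libraries are always given in the order of replicates 1, 2 and 3, and ± is the SD over n = 3. Since only 1 group is described, no test was run. Total counts were 17311021, 18751815 and 16373203. Over the 9808 protein-coding genes whose mean FPKM was 1 or more, the Pearson correlation of log2(FPKM + 1) between pairs of libraries was 0.994, 0.994 and 0.995, a description across genes that share the same cells and processing.

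The RNA counted was almost wholly messenger RNA. Protein-coding genes took 97.4%, 97.2% and 97.2% of counts, a mean of 97.3% ± 0.104 (SD, n = 3). Long intergenic RNAs took 0.192% ± 0.00733, antisense RNAs 0.205% ± 0.00864 and pseudogenes of all kinds 0.768% ± 0.0126. The library text in the labels goes against these shares: genes annotated as microRNA took 0.00320% ± 0.000199 of counts and small nucleolar RNAs 0.00104% ± 3.31e-05. Genes of the mitochondrial chromosome took 7.52%, 6.81% and 6.91%, and replicate 1 stood highest. Cytosolic ribosomal protein genes took 8.87% ± 0.188 and the keratin genes 3.19% ± 0.111.

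Counts were concentrated in few genes. The gene with the most counts alone took 1.74% ± 0.130, the 10 highest took 9.26% ± 0.209 and the 100 highest took 29.7% ± 0.399. The number of genes needed to reach 50% of all counts was 518, 539 and 501. Of 19951 protein-coding genes, 3942 had no count in any library and 14112 had at least 1 count in all 3. A mean of at least 1 FPKM was reached by 9808 protein-coding genes, 49.2% of them, and this share is the background for the gene lists below. At least 10 FPKM was reached by 3711 genes (18.6%), 100 FPKM by 358 (1.79%) and 1000 FPKM by 33. The median over all protein-coding genes was 0.928 FPKM, and over the 16009 genes with a count it was 2.16 FPKM.

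**Figure D1:**
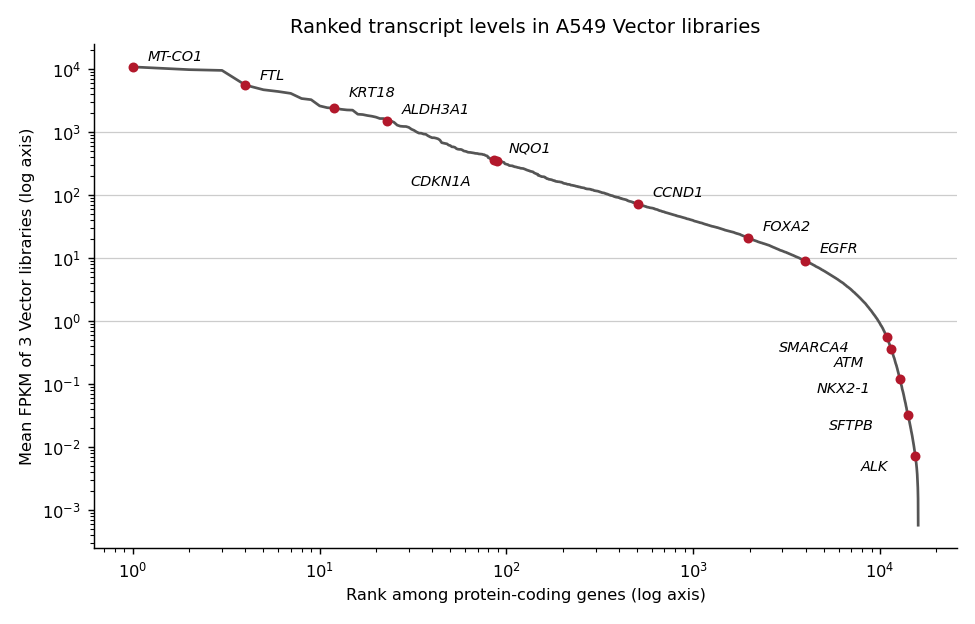
Mean FPKM of the 3 Vector libraries (vertical, log axis) against the rank among protein-coding genes with a count (horizontal, log axis). Each red point is a named gene, and the curve runs from MT-CO1 at 10951 FPKM through FTL, KRT18 and the enzyme gene ALDH3A1 to NKX2-1, SFTPB and ALK, which lie below 1 FPKM on its steep end.

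Mitochondrial transcripts, ferritin, keratins and detoxifying enzymes led the protein-coding ranking. The 3 highest genes encode subunits of cytochrome c oxidase: MT-CO1 at 11679, 10751 and 10422 FPKM, MT-CO3 at 10628, 9164 and 9918 and MT-CO2 at 10237, 9344 and 9317. In each of the 3, replicate 1 was highest. By the table length the highest nuclear gene was FTL, the light chain of ferritin, the iron store of the cell, at 5295, 5399 and 6224 FPKM and a mean of 5639.5 ± 509. With the length of the principal transcript KRT8 came first among nuclear genes, at 6199 ± 382 FPKM, and FTL followed. FTH1, the heavy chain of ferritin, stood at 539.6 ± 33.5 FPKM, so that the ratio of FTL to FTH1 was 10.4, 10.1 and 10.8, although 62.4% of the exon length of FTH1 in the table is shared with BEST1. That ratio also rests on the length, since FTH1 came to 891 ± 55.4 FPKM with its principal transcript and FTL did not move. The actin-binding peptide gene TMSB10 ranked 14th with 2269 ± 68.6 FPKM, cytoplasmic actin ACTG1 ranked 16th with 1940.3 ± 110.3, and the ribosomal protein genes RPL8 and RPL13A ranked 18th and 20th with 1849 ± 121 and 1744 ± 134. Ribosomal protein genes have many near-identical processed copies, so their own levels are uncertain.

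The 5 marker genes are known for high levels in A549, and all 5 were among the 100 highest protein-coding genes. They were chosen with earlier results of these data known, so their levels are no independent check of the label of the line. KRT18 (ENSG00000111057, chromosome 12, 52948871 to 52952901, plus strand, hg38), a type I keratin of simple epithelia, stood at 2371, 2341 and 2576 FPKM and ranked 12th. Its type II partner KRT8 (ENSG00000170421, chromosome 12, 52897187 to 52949954, minus strand, hg38) stood at 1903, 1804 and 2039 FPKM and ranked 17th. Both were highest in replicate 3, and the ratio of KRT18 to KRT8 was 1.25, 1.30 and 1.26. That order depends on the length used: the table gives KRT8 6881 bases and KRT18 3218, and with the length of the principal transcript KRT8 came to 6199 ± 382 FPKM and KRT18 to 5005 ± 264. By position KRT8 and KRT18 also overlap on opposite strands, and whether strand was used in counting is not given.

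The other 3 markers encode enzymes. AKR1B10 (ENSG00000198074, chromosome 7, 134527592 to 134541408, plus strand, hg38), an aldo-keto reductase that reduces retinal and reactive aldehydes, stood at 2149, 2295 and 2313 FPKM and ranked 15th. ALDH3A1 (ENSG00000108602, chromosome 17, 19737984 to 19748943, minus strand, hg38), which oxidises aldehydes, stood at 1387, 1538 and 1646 FPKM and ranked 23rd. NQO1 (ENSG00000181019, chromosome 16, 69706996 to 69726951, minus strand, hg38), a quinone reductase and a classical NRF2 target, stood at 358, 381 and 365 FPKM and ranked 86th. Replicate 1 was lowest for all 3 enzymes. The coefficient of variation (CV) of CPM, counts brought to a common library size with the TMM method, was 3.62% for AKR1B10, 8.20% for ALDH3A1 and 2.92% for NQO1.

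The hair keratin KRT81 and the simple epithelial keratins KRT18, KRT8 and KRT7 were the 4 highest of 55 keratin genes, of which 14 reached 1 FPKM. KRT81 stood at 2411, 2605 and 2873 FPKM and came first by the table length, whereas with the principal transcript it stayed at 2629.8 ± 232 FPKM, below KRT8 and KRT18. KRT7, found in lung and other ductal epithelia, stood at 971, 1009.6 and 1063 FPKM and KRT19 at 89.5, 80.3 and 94.7. KRT80 stood at 56.1 ± 5.8 FPKM, KRT10, a keratin of stratified epidermis, at 47.3 ± 3.31, KRT6A at 7.3 ± 1.05 and the basal keratin KRT15 at 2.19 ± 0.322, whereas KRT5 had 1, 2 and 2 counts and KRT14 had 0, 0 and 2. The neighbouring hair keratin KRT86 stood at 25.6, 29 and 44.2 FPKM, highest in replicate 3.

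KRT81 and KRT86 share much of their coding sequence, so reads from the one may be counted for the other. Their coding sequences, of 1515 and 1458 bases, were the same at 94.2% of positions aligned without a gap, with a longest identical run of 605 bases. The ratio of KRT81 to KRT86 was 94.3, 89.9 and 65.0, and KRT86 had the smaller value in every library.

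Of the surfactant program of alveolar type 2 cells, the lipid genes were present and the surfactant proteins were at or near 0. SFTPA1 had no count in any library, where 3 counts would be 0.0679, 0.0622 and 0.0744 FPKM. SFTPC had 2, 1 and 0 counts, SFTPA2 had 1, 1 and 0, and SFTPB had 4, 1 and 2. NKX2-1, the lung lineage factor, stood at 0.0701, 0.161 and 0.134 FPKM and the aspartic protease NAPSA, a diagnostic marker of lung adenocarcinoma, at 0.155, 0.355 and 0.272. SFTPD, a secreted lectin of innate defence, was the exception among surfactant proteins, at 3.65, 4.39 and 4.69 FPKM in the 3 libraries. ABCA3, which carries lipid into the surfactant storage organelle, stood at 15, 16.1 and 18.3 FPKM, and LPCAT1, which remodels surfactant phosphatidylcholine, at 23.2, 18.2 and 20.3.

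The list of 15 alveolar type 2 markers thus had 6 members at 1 FPKM or more, 40% against the background of 49.2%, and a median of 0.26 FPKM. Its members at that level were LPCAT1, ABCA3, ETV5 (7.69 ± 1.11), CTSH (6.84 ± 0.618), MUC1 (6.02 ± 1.28) and SFTPD. Each of them is also known outside type 2 cells, and the summed level of the list was 62.7, 60.1 and 66.4 FPKM. In bulk RNA, fewer cells with a transcript and less of it per cell cannot be told apart. Of 8 alveolar type 1 markers, CAV1, the coat protein of caveolae, stood at 55, 47.8 and 49.3 FPKM and EMP2 at 9.95, 10.3 and 10.5, whereas AGER, the receptor that marks these cells in lung, stood at 0.374, 0.685 and 0.761. PDPN and HOPX, also type 1 markers, had no count, with 3 counts equal to 0.0449, 0.0411 and 0.0492 and 0.0215, 0.0197 and 0.0235 FPKM.

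Mucus genes had the highest median of the lung and airway lists described here, 14.3 FPKM. AGR2, an endoplasmic reticulum protein needed to fold mucins, stood at 49.3, 56.3 and 56.2 FPKM, and the gel-forming mucins MUC5B and MUC5AC stood at 38.8, 37.9 and 49.4 and at 8.88, 8.18 and 11.1. The goblet cell factor SPDEF stood at 19.2, 18.3 and 20 FPKM and the mucus protein FCGBP at 20.6, 16.3 and 23.2. For MUC5B, MUC5AC, FCGBP and SPDEF replicate 3 was highest and replicate 2 lowest. In this list 6 of 8 members reached 1 FPKM (75% against 49.2%). The intestinal mucin MUC2 (0.0708 ± 0.0261) and TFF3 (0, 1 and 0 counts) did not.

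The remaining airway sets had medians below 1 FPKM. At 1 FPKM or more stood 33.3% of club cell and 37.5% of basal and squamous markers, beside 49.2% of all protein-coding genes. The club cell secretoglobins SCGB1A1, SCGB3A1 and SCGB3A2 had no count, with 3 counts equal to at most 0.313, 0.215 and 0.17 FPKM, but the secreted airway protein BPIFA1 stood at 3.54, 3.53 and 4.67 FPKM and BPIFB1 at 2.18, 1.7 and 2.27. None of 7 genes of ciliated cells reached 1 FPKM, and the factor FOXJ1 had 1, 0 and 0 counts. Of 8 basal and squamous markers 3 reached it, KRT6A, KRT15 and TP63 (1.1 ± 0.141), the last of which is the basal cell factor. Of 7 neuroendocrine markers only the granule protein CHGB did, at 7.65, 6.98 and 8.01 FPKM.

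Transcription factors of gut and liver were present at modest levels, beside some plasma proteins of liver. FOXA2, a factor that opens chromatin in endoderm, stood at 20, 20.4 and 22.8 FPKM and HNF4A, a nuclear receptor of liver and gut, at 6.81, 6.86 and 6.92. The 3 values of HNF4A had an SD of 0.0538 FPKM. In this list 12 of 13 members reached 1 FPKM (92.3% against 49.2%) and 1 reached 10 FPKM (7.69% against 18.6%). The lowest was HNF4G at 0.243 ± 0.0217. The chains of fibrinogen, the clotting protein made by liver, stood at 94.9, 87.3 and 89.2 FPKM for FGA, 56.5, 50.3 and 54 for FGG and 44.3, 38.6 and 40.1 for FGB. Their ratios held across libraries, FGA to FGB being 2.14, 2.26 and 2.22.

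The other plasma proteins ranged from the level of fibrinogen to no count. Complement C3 stood at 81, 65.2 and 84.2 FPKM, lowest in replicate 2 as the fibrinogen chains were, and SERPINA1, the inhibitor of neutrophil elastase, at 2.82 ± 0.269. Albumin (ALB) stood at 0.0329, 0.0753 and 0.054 FPKM. The apolipoprotein genes APOA1, APOA2 and APOB and haptoglobin (HP) had no count, with 3 counts equal to at most 0.128, 0.193, 0.0123 and 0.0337 FPKM. Of the 17 members 10 reached 1 FPKM (58.8% against 49.2%).

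**Figure D2:**
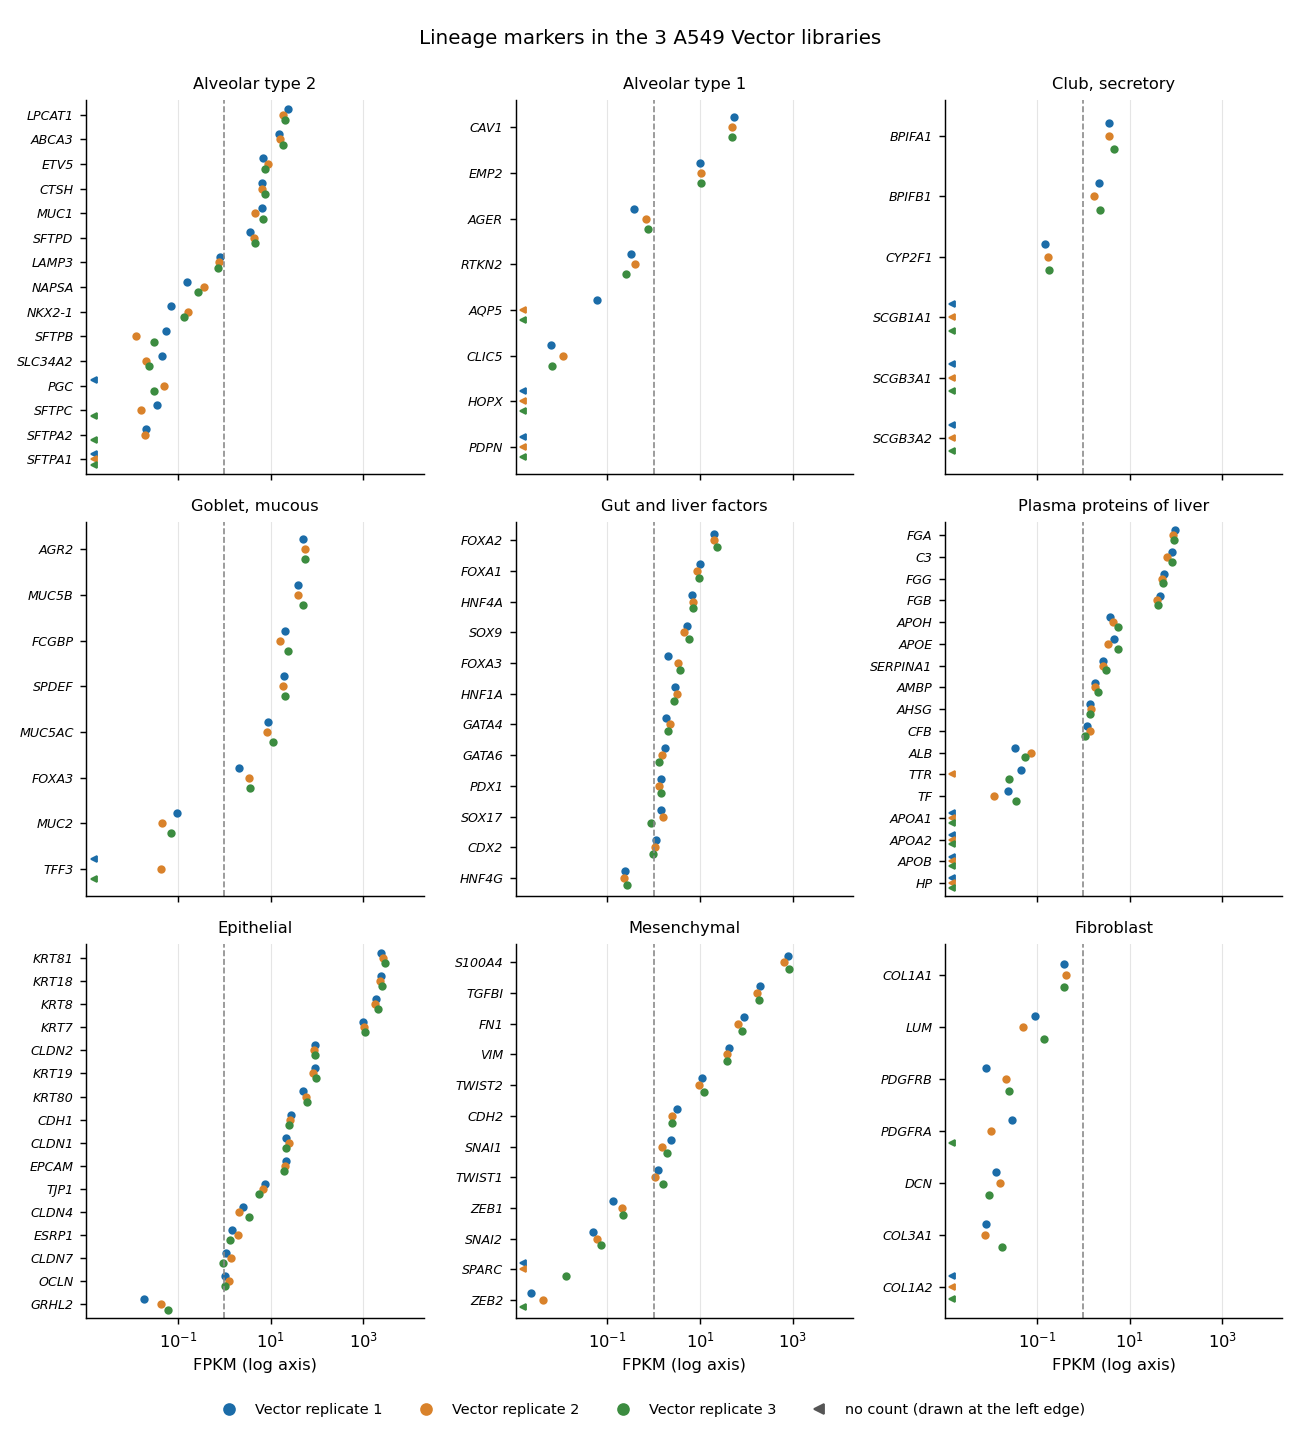
FPKM of lineage markers (horizontal, log axis) in the 3 Vector libraries, 1 panel per list and 1 row per gene, with colours for replicates and arrowheads at the left edge for libraries with no count; the dashed line is 1 FPKM. SFTPA1 and the secretoglobins lie at the left edge, whereas SFTPD lies right of the line. Simple keratins, fibrinogen chains and the mucus genes AGR2, MUC5B, MUC5AC, SPDEF and FCGBP also lie right of the line in all 3 libraries.

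Markers of cells foreign to a carcinoma culture were at or near 0. None of 7 fibroblast markers reached 1 FPKM: COL1A1 stood at 0.379, 0.414 and 0.39 FPKM and COL1A2 had no count, and the summed level was 0.528, 0.520 and 0.584 FPKM. None of 6 endothelial markers reached it, and their sum was 0.0376, 0.0672 and 0.115 FPKM. Of 8 blood cell markers only CD14, a receptor for bacterial lipopolysaccharide, did, at 7.77, 6.06 and 8.41 FPKM. The pan-leukocyte gene PTPRC had 0, 2 and 2 counts and the B cell gene MS4A1 none. Apart from CD14, the defining markers of these 3 kinds of cell were thus at or near 0 in all 3 libraries.

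Epithelial genes and some mesenchymal genes were present together. Of 16 epithelial markers 15 reached 1 FPKM (93.75% against 49.2%), with a median of 24.6 FPKM. Of 12 mesenchymal markers 8 did (66.7%), with a median of 2.3 FPKM. The adhesion genes CDH1 and EPCAM stood at 27.4, 26.8 and 25 and at 21.7, 20.6 and 19 FPKM, and the tight junction gene CLDN2 at 88.5, 86 and 92.3. On the mesenchymal side VIM, the intermediate filament vimentin, stood at 41.9, 38.3 and 38.6 FPKM, fibronectin FN1 at 90.1, 65.7 and 81.3 and the calcium-binding S100A4 at 777, 646 and 839. For FN1 and S100A4 replicate 2 was lowest. The cadherin ratio favoured the epithelial member, CDH1 to CDH2 being 8.64, 10.8 and 10.3. The repressors of CDH1 that drive mesenchymal change were low, with ZEB1 at 0.128, 0.206 and 0.218 FPKM and ZEB2 at 1, 2 and 0 counts, and so was the epithelial regulator GRHL2, at 2, 5 and 6 counts.

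Targets of NRF2 stood far above the background. Of 39 members 38 reached 1 FPKM, 34 reached 10 FPKM and 21 reached 100 FPKM (53.8% against 1.79% of all protein-coding genes), with a median of 141 FPKM. All members of this list were chosen with earlier results of these data known. They include AKR1B10, ALDH3A1 and NQO1, taken as markers because the line is known for them. The level of the list was thus partly built into the choice. PGD, an enzyme of the pentose phosphate pathway that makes NADPH, stood at 653, 654 and 716 FPKM. In the same pathway TKT stood at 276, 289.9 and 322 FPKM and TALDO1 at 232, 242 and 248. PGD and TKT were highest in replicate 3 and lowest in replicate 1.

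Enzymes of glutathione and thioredoxin followed at similar levels. GSTP1, a glutathione transferase, stood at 430.1, 477 and 512 FPKM, the glutathione peroxidase GPX2 at 358, 363 and 404 and thioredoxin TXN at 436, 449.7 and 443. Thioredoxin reductase TXNRD1 stood at 186 ± 8.02 FPKM and glutathione reductase GSR at 141 ± 9.33. The subunits of the enzyme that begins glutathione synthesis were lower and nearly equal, GCLC at 12.6, 12.1 and 10.6 FPKM and GCLM at 13, 11.1 and 11.4, as was the cystine carrier SLC7A11 at 9.17, 8.44 and 8.08. HMOX1, heme oxygenase, stood at 37.2, 35.5 and 40.3 FPKM. GPX3, the gene named in the title of the other group, stood at 11.2, 10.6 and 12.5 FPKM here.

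The AKR1C reductases, which act on steroids and lipid aldehydes, were high, but their split is uncertain. AKR1C3 stood at 473, 475 and 459.7 FPKM, AKR1C2 at 445, 452 and 466 and AKR1C1 at 177, 141 and 180.4, with replicate 2 lowest for AKR1C1 alone. The coding sequences of AKR1C1 and AKR1C2, of 969 bases each, differ at 19 positions (98.0% identical), and their longest identical run is 186 bases. Coding bases 103 to 162 are shown because 10 of the 19 differences, in capitals, fall there. AKR1C1 lies on the plus strand at chr10:4965932-4965991 and AKR1C2 on the minus strand at chr10:5001604-5001663, both on GRCh38, with coding sequence from GENCODE release 29.
AKR1C1: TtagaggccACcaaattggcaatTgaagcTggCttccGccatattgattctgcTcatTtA
AKR1C2: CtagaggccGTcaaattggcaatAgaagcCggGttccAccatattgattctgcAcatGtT
AKR1C3 differs more, with 91.4% identity to AKR1C1. The ratio of AKR1C1 to AKR1C2 was 0.398, 0.313 and 0.387. The related AKR1B15, 93.5% identical to AKR1B10 over coding bases aligned without a gap, stood at 7.03 ± 0.364 FPKM.

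Promoter sequence was read for the genes with a single RefSeq window, 10987 of the 14886 protein-coding genes with any (GRCh38.p14). A window ran from 250 bases before to 50 bases after the transcript start. The number of CG pairs rose with level and then stopped rising: the median was 5 in the 2191 genes with no count, 18 in the 3213 genes below 1 FPKM, 28 from 1 to 10 FPKM, 29 from 10 to 100 FPKM and 26 in the 203 genes at 100 FPKM and above. Windows on chromosomes 8 and Y were left out of the choice of examples. Among the rest, RAN, the transport GTPase, has the most CG pairs in genes at 100 FPKM and above. It has 57 and stood at 110.4, 126 and 118 FPKM. SFTPA1, with no count, has 2, the fewest among windows of alveolar type 2 markers below 1 FPKM. The 250 bases before each start are shown as examples of a window with many and a window with few, with CG in capitals, for RAN at chr12:130871816-130872065 on the plus strand and SFTPA1 at chr10:79610689-79610938 on the plus strand.
RAN: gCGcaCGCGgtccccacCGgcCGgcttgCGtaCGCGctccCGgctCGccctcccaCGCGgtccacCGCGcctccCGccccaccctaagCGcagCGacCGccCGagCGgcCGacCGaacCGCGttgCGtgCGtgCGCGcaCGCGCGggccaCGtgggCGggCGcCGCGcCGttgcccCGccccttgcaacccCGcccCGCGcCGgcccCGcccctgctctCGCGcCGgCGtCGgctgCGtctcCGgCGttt
SFTPA1: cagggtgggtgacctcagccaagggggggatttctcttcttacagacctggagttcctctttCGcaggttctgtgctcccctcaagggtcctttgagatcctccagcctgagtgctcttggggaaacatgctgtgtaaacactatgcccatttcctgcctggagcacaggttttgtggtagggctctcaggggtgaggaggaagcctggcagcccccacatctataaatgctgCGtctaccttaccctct
Of the 57 CG pairs of RAN 51 lie before the start, and both of SFTPA1 do.

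The TATA motif followed a different course over the levels. TATAAA on either strand, anywhere in the window, was found in 23% of windows of genes with no count, 11% below 1 FPKM, 4.05% from 1 to 10 FPKM, 5.26% from 10 to 100 FPKM and 12.3% at 100 FPKM and above, against 10.2% of all windows. On the coding strand from 40 to 21 bases before the start, where the TATA box is known to lie, the shares were 9.31%, 4.64%, 1.18%, 2.29% and 8.37%. Both ends of the range thus held it more often than the middle, and the highest class rests on 17 of 203 windows. Outside chromosomes 8 and Y, RPLP0, a ribosomal stalk protein, has the highest level among these, 1159, 1247 and 1352 FPKM. Its TATAAA starts 27 bases before the start. It is shown in capitals in the 250 bases at chr12:120201112-120201361, minus strand.
RPLP0: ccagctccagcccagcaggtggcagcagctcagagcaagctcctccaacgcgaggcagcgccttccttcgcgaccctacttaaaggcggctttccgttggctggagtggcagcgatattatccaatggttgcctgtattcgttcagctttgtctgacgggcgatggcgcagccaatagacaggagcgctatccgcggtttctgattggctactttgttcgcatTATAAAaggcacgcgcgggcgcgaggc

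The core of the antioxidant response element, the site NRF2 binds, was searched as TGACNNNGC on both strands. It was found in 7 of the 23 windows of the NRF2 list and in 14.5% of all windows, and the share ran from 12.3% in genes with no count to 17.2% at 100 FPKM and above. A match is only a description of letters, and many known elements lie outside such a window. PGD and GSTP1 have the highest levels among the 7, and their matches, in capitals, begin 201 and 66 bases before the start. The bases shown are chr1:10398814-10399063 and chr11:67583562-67583811, both on the plus strand.
PGD: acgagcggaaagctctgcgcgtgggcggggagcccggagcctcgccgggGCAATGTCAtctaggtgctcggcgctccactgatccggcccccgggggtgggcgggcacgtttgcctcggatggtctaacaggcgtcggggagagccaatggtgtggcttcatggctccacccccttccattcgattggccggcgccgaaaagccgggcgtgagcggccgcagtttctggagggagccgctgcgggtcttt
GSTP1: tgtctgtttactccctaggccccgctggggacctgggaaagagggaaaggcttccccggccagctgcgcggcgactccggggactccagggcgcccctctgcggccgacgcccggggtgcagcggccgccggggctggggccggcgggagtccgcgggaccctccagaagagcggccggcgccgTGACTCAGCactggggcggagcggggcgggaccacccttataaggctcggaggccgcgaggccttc
In PGD the match is on the other strand, where the capitals are read as their reverse complement.

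Oncogenes ranged from the survival gene BCL2L1 to genes with no count. Of 50 genes in this list 30 reached 1 FPKM (60% against 49.2%), and the median was 5.03 FPKM. BCL2L1, which restrains cell death, stood at 99.5, 105 and 115 FPKM, although 43.0% of its exon length is shared with the antisense RNA ABALON. The G1 cyclins CCND1 and CCND3 stood at 81.4, 71.4 and 66.9 and at 67.4, 59.9 and 71.4 FPKM, while CCND2 had no count. CCND1 was highest in replicate 1 and CCND3 in replicate 3, and their ratio was 1.21, 1.19 and 0.937. Their order depends on the length used, since with the principal transcript CCND3 came to 184 ± 16.4 FPKM and CCND1 to 82.1 ± 8.32. MYC stood at 57.1, 61.6 and 48.6 FPKM, and MYCL and MYCN stayed at 0.841 ± 0.0794 and 0.823 ± 0.295.

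Of the small GTPases that pass on growth signals, HRAS stood at 32.9, 33.9 and 38.4 FPKM and NRAS at 5.11, 5.44 and 4.78. With the length of its principal transcript HRAS came to 56.5 ± 4.66 FPKM. Of the receptor kinases, MET stood at 18.6, 17.7 and 15.4 FPKM, ERBB2 at 16.3, 14.8 and 18.2 and EGFR at 10.7, 9.46 and 7.38, with EGFR and MET lowest in replicate 3. Of the kinases known as fusion targets in lung cancer, ALK with 1, 2 and 0 counts and RET with 2, 0 and 1 were at or near 0. ROS1 stood higher but below 1, at 0.671, 0.524 and 0.503 FPKM. PIK3CA at 0.388 ± 0.0424 FPKM and BRAF at 0.263 ± 0.0339 were also below 1.

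Tumour suppressors ranged from a gene among the 100 highest to genes with no count. CDKN1A, the p21 inhibitor of cyclin-dependent kinases, stood at 284, 386 and 376 FPKM and ranked 89th, with replicate 1 lowest. MDM2, a ubiquitin ligase that restrains growth arrest and so is no tumour suppressor itself, stood at 3.99, 4.0 and 3.52 FPKM. KEAP1 and STK11, both known to be mutated in the line, had transcripts in every library, KEAP1 at 24.7, 27.2 and 29.4 FPKM and STK11 at 10.2, 9.83 and 11.9. In the list 30 of 48 members reached 1 FPKM (62.5% against 49.2%), with a median of 2.64 FPKM.

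Subunits of the SWI/SNF chromatin remodeller differed. The ATPase SMARCA4 stood at 0.615, 0.512 and 0.532 FPKM and the alternative ATPase SMARCA2 at 2.17, 2.1 and 1.79, a ratio of SMARCA2 to SMARCA4 of 3.52, 4.09 and 3.36. SMARCB1, a core subunit, stood at 3.93, 4.8 and 4.63 FPKM and ARID1A at 5.18, 4.73 and 4.51. The table length of SMARCA4 is 15778 bases, and with the principal transcript it came to 1.51 ± 0.149 FPKM and SMARCA2 to 6.39 ± 0.639. Of other suppressors, the repair kinase ATM stood at 0.40, 0.322 and 0.36 FPKM, APC at 0.361, 0.204 and 0.239 and BRCA2 at 0.0904, 0.058 and 0.0693. The splicing factor U2AF1, at 0.0849, 0.178 and 0.339 FPKM, has a near-identical copy in the genome, which makes its level uncertain.

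**Figure D3:**
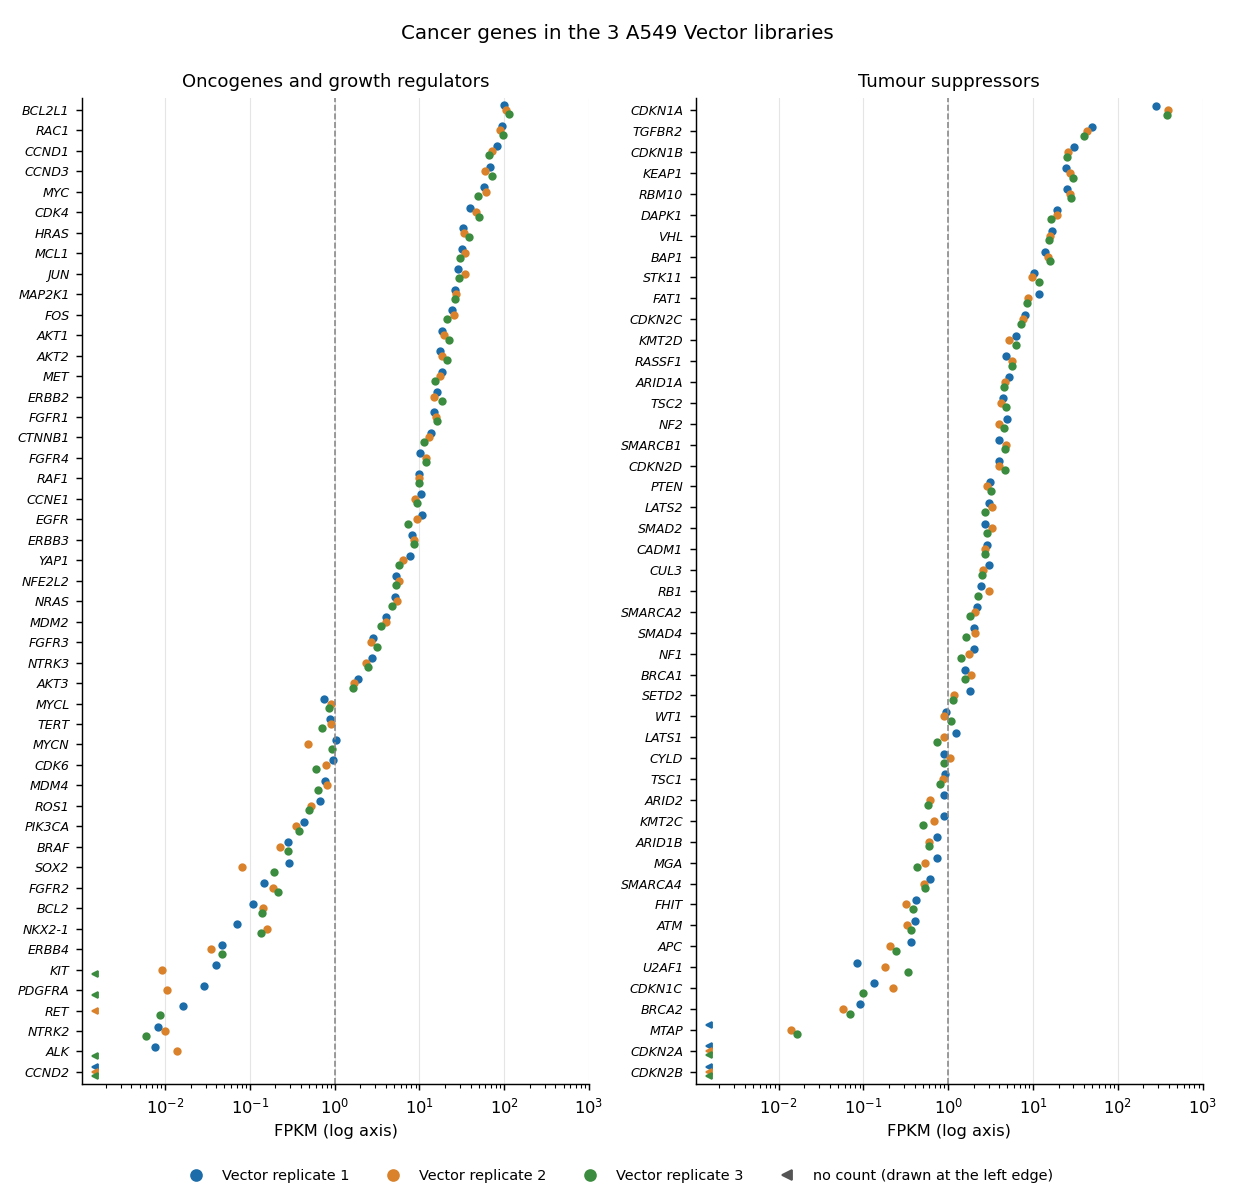
FPKM (horizontal, log axis) of oncogenes and growth regulators (left) and tumour suppressors (right) in the 3 Vector libraries, 1 row per gene in order of the mean; colours mark replicates, arrowheads at the left edge a library with no count, and the dashed line 1 FPKM. The 3 points of a gene lie close together above the line and spread apart below it, and CDKN2A and CDKN2B sit at the left edge in all 3 libraries.

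Transcripts were missing from a stretch of chromosome 9 around CDKN2A. CDKN2A (ENSG00000147889, chromosome 9, 21967753 to 21995301, minus strand, hg38), which encodes the inhibitors p16 and p14ARF, had no count, where 3 counts would be 0.0385, 0.0352 and 0.0421 FPKM. CDKN2B, the neighbouring inhibitor p15, had none either, with a limit of 0.041, 0.0376 and 0.0449 FPKM, and MTAP, an enzyme of methionine salvage, had 0, 4 and 4 counts. Of all 15 annotated genes from the start of MTAP at position 21802543 to the start of DMRTA1 at 22446841 (hg38), 12 had no count, and the other 3 had 41 counts in the 3 libraries together.

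The nearest genes with steady transcripts lay on both sides of that stretch. KLHL9, a ubiquitin ligase adaptor, had 301, 258 and 269 counts at chromosome 9, 21329671 to 21335380. On the other side DMRTA1 had 15, 25 and 12 counts, TUSC1 had 150, 169 and 183 and CAAP1 had 373, 514 and 328. Between KLHL9 and MTAP lie interferon genes, of which IFNA6, IFNA13, IFNA2, IFNA8 and IFNA1 had no count and IFNE had 1, 0 and 0. Why these interferon genes had next to no counts was not tested. Beyond DMRTA1, the neuronal ELAVL2 and the sperm gene IZUMO3 had no count.

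**Figure D4:**
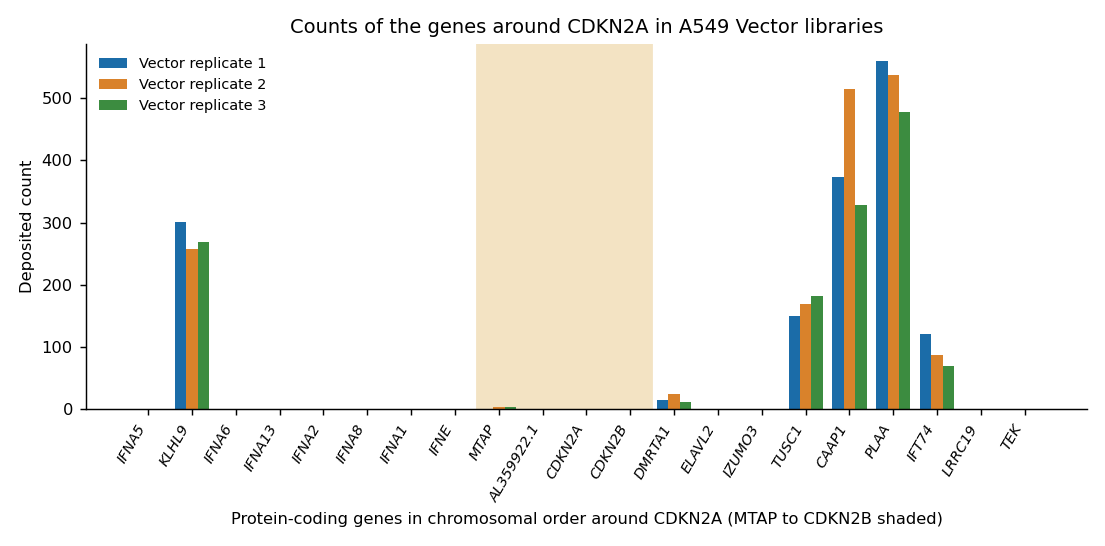
Deposited counts (vertical, from 0) in the 3 Vector libraries of CDKN2A and the 10 protein-coding genes on each side in chromosomal order (horizontal); the shaded part runs from MTAP to CDKN2B. Bars of KLHL9 and of TUSC1, CAAP1, PLAA and IFT74 stand in all 3 libraries, and the shaded part reaches at most 4 counts.

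The libraries carried transcripts of dividing cells. All 18 members of the proliferation list reached 1 FPKM, and 16 reached 10 FPKM (88.9% against 18.6%). PCNA, the sliding clamp of DNA polymerase, led at 269, 276 and 254 FPKM, followed by the helicase subunit MCM7 at 61.5, 60.6 and 67.5. MKI67, the antigen of cycling cells, stood at 10.3, 7.7 and 8.47 FPKM, and the mitotic kinase AURKA at 14.9, 14.8 and 14.8. Of the replication histone genes, most of whose transcripts lack a poly(A) tail, 9 of 71 reached 1 FPKM (12.7% against 49.2%). They were led by HIST1H2BK at 49.5, 54.4 and 50.9 FPKM, and why the others were low was not tested.

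Telomerase was present at a low level. The catalytic subunit TERT stood at 0.868, 0.906 and 0.70 FPKM, above the floor of 3 counts at 0.0362, 0.0331 and 0.0396 FPKM, and the scaffold proteins DKC1 and NOP10 at 22.8 ± 1.99 and 167 ± 10.3. The RNA subunit TERC is listed at 0, as are the structured RNAs RN7SK, RMRP, RPPH1 and RN7SL1. For these 5 genes between 81.0% and 100% of the exon length is shared with a second entry of the annotation, so no level is drawn from their zeros.

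The genes of the Hippo pathway, a kinase cascade that keeps the coactivators YAP1 and WWTR1 out of the nucleus, were present at low to modest levels. YAP1 stood at 7.74, 6.31 and 5.73 FPKM and WWTR1 at 9.58, 7.69 and 6.28, both highest in replicate 1 and lowest in replicate 3. The kinases LATS1 and LATS2 stood at 1.23, 0.90 and 0.738 and at 3.05, 3.3 and 2.69 FPKM, and the target genes CTGF and CYR61, also known as CCN2 and CCN1, at 4.91, 6.95 and 4.29 and at 9.06, 12 and 10.3. Together with GPX3 and the small heat shock protein HSPB1, which stood at 214, 165 and 209 FPKM, 18 of 20 such genes reached 1 FPKM. That is 90% against the background of 49.2%. Of 8 genes of manganese transport and use 7 did (87.5%), led by the carrier SLC39A14 at 24.7, 27.8 and 22.2. The exporter SLC30A10 had 1, 0 and 0 counts. Both lists were chosen with earlier results of these data known.

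The light chain of class I antigen presentation was present and class II was not. B2M, this light chain, stood at 76.4, 76.2 and 73.9 FPKM. HLA-DRA and HLA-DRB1 had no count, with 3 counts equal to at most 0.142 and 0.148 FPKM, and CIITA, the master factor of class II, stood at 0.0401, 0.0588 and 0.0468. CD274, the checkpoint ligand PD-L1, stood at 0.243, 0.247 and 0.222 FPKM. The surface protease TMPRSS2 had 0, 2 and 0 counts, whereas the proteases FURIN and CTSL stood at 64.5 ± 5.57 and 62.2 ± 2.22.

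The highest RNA outside the coding genes was MT-RNR2, the large mitochondrial ribosomal RNA, at a mean of 7125 FPKM. LRRC75A-AS1, of the class called processed transcript, had the highest level of the long non-coding classes, 113, 120.1 and 119 FPKM. The highest long intergenic RNAs were SNHG8 at 48.7, 65.1 and 55.7 FPKM, NORAD at 24.5, 20.3 and 19.2, FLJ20021 at 17.1 ± 0.738, ITGB1-DT at 15 ± 2.64 and AC090204.1 at 14.9 ± 1.49. NORAD binds Pumilio proteins, and SNHG8 hosts a small nucleolar RNA. Of the antisense RNAs ZFAS1 stood at 50.3, 53.6 and 53.1 FPKM, LINC01137 at 17.7, 27.5 and 24 and SNHG7 at 18.4, 20.1 and 22.1. The nuclear RNAs MALAT1 and NEAT1, which are abundant in many cells, stood at 1.15, 0.691 and 1.38 and at 2.59, 2.61 and 2.24 FPKM. Of 7629 long intergenic genes 214 reached 1 FPKM (2.81%).

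Some pseudogenes copied from messenger RNA stood above the genes they were copied from. RPS28P7 stood at 1459, 1434 and 1351 FPKM, and the ribosomal protein gene RPS28 it was copied from at 59.7, 56 and 65.1, a ratio of 24.4, 25.6 and 20.8. RPL9P9 stood at 699, 733 and 737 FPKM against 59.2, 61.2 and 59.2 for RPL9. RPL39P3 and AC116533.1 followed at 463 ± 52.2 and 435 ± 11.3 FPKM. Copies of this kind share nearly all their sequence with the parent, and the labels do not say how such reads were assigned, so a pseudogene and its parent cannot be told apart from these values.

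The 3 libraries differed by more than counting error but by little for most genes. Over the 3711 protein-coding genes at a mean of 10 FPKM or more, the median CV was 7.13%, and counting error alone would give a median of 2.42%. Its 5th and 95th percentiles were 1.99% and 14.3%. The common biological coefficient of variation from edgeR, over 13784 genes kept by its filter, was 0.0961. The median CV was 9.52% between 1 and 10 FPKM, 7.21% between 10 and 100, 6.18% between 100 and 1000 and 6.51% in the 33 genes at 1000 FPKM and above. A CV of 20% or more was found in 46 of the 3711 genes, 1.24%.

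In 29 of those 46 genes replicate 1 was lowest and replicate 2 highest, and the other 17 had another order. Replicate 2 was highest in 30 of the 46, beside 802 of all 3711, and replicate 1 was lowest in 32, beside 1639 of 3711. CHAC1, which breaks down glutathione and is induced by amino acid shortage, stood at 9.28, 24.9 and 18.8 FPKM, a CV of 44.4%. TRIB3, a pseudokinase induced by the factor ATF4, stood at 67.1, 147 and 112 FPKM (36.7%), and SESN2, a leucine sensor, at 16.8, 33.8 and 25 (33.3%). The same order was seen in STC2, a secreted stress protein, at 9.98, 23.6 and 15.5 FPKM (41.7%), in PSAT1, an enzyme of serine synthesis, at 79.9, 146 and 92.3 (33.2%), and in MTHFD2, of mitochondrial folate metabolism, at 32.9, 58.4 and 39.7 (30.1%). ATF4 itself, the factor of the integrated stress response, stood at 117, 193 and 153 FPKM.

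Some members of the stress list had another order. HSPA1A, the inducible HSP70, stood at 20.8, 8.5 and 15.5 FPKM (41.6%) and its near-identical copy HSPA1B at 10.8, 5.44 and 7.52, both highest in replicate 1 and lowest in replicate 2. The endoplasmic reticulum chaperone HSPA5 stood at 138, 112 and 114 FPKM, and the hypoxia gene CA9 at 11, 9.8 and 12.3. In the stress list as a whole, 7 of 15 members at 10 FPKM or more had a CV of 20% or more, beside 1.24% of all genes at that level, and 13 of the 19 members at 1 FPKM or more were highest in replicate 2, beside the 802 of 3711 genes at 10 FPKM or more given above. The list was drawn up with earlier results of these libraries known, so its wide spread may be partly built into the choice. The median CV of its 19 members was 21.6%, against 4.95% for the proliferation list and 6.18% for the housekeeping list, which includes GAPDH at 1636, 1572 and 1758 FPKM and TBP at 5.39, 6.45 and 6.11.

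**Figure D5:**
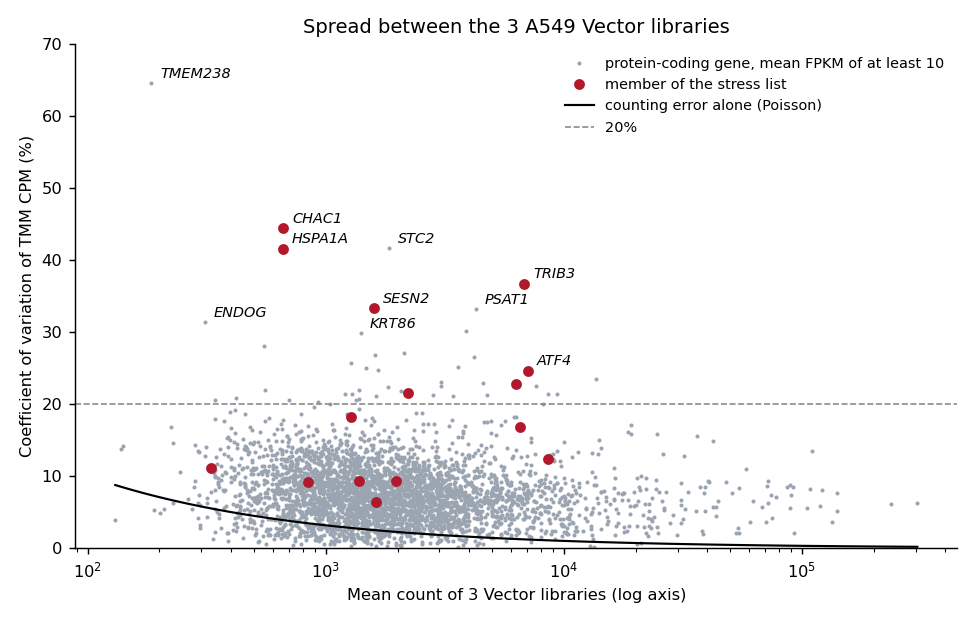
Coefficient of variation between the 3 Vector libraries (vertical, percent, TMM-scaled CPM) against the mean count (horizontal, log axis) for 3711 protein-coding genes at a mean of 10 FPKM or more; red points are members of the stress list, the black line is counting error alone and the dashed line is 20%. Most genes lie between the black line and 15%, while TMEM238, CHAC1, STC2, HSPA1A and TRIB3 stand above 35%.

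A second kind of spread went with base composition, and to a smaller extent with gene length and level. Replicate 3 was the highest library for 2004 of the 3711 genes. In the fifth of genes with the lowest GC content of the principal transcript, from 33.4% to 45.8%, the median log2 deviation from the gene's mean was 0.04, 0.01 and -0.06 in replicates 1, 2 and 3. In the fifth with the highest, from 61.1% to 74.5%, it was -0.08, -0.04 and 0.12. TMEM238, the gene with the largest CV, has a GC content of 73.7% and stood at 7.44, 5.85 and 18.4 FPKM, and ENDOG, a mitochondrial nuclease of 67.7%, stood at 11.5, 13 and 20.3.

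Levelling GC content between libraries, an alternative chosen after seeing the data, took each library's median deviation out of 20 GC classes. The median CV then fell to 5.09%, and 36 genes kept or reached a CV of 20%, of which 34 were among the 46. The step also takes out any offset of a whole library, so not all of the fall need go with GC content. Scaling by total counts alone, without levelling, gave a median CV of 6.58%. After GC levelling the CV was 44.7% for CHAC1, 41.6% for STC2, 36.9% for TRIB3 and 33.5% for SESN2, close to the values above. TMEM238 went from 64.5% to 55.6%, ENDOG from 31.4% to 22.2% and KRT86 from 29.9% to 22.5%. Why the libraries differ in GC content was not tested.

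The steadiest genes at 10 FPKM or more were MTHFD1, the cytosolic folate enzyme, at 21, 21.2 and 21.2 FPKM, the ribosomal protein gene RPS12 at 962, 971 and 971, the aldehyde dehydrogenase ALDH2 at 20.4, 20.5 and 20.6, SERP1 at 20, 20 and 20 and IRF2BPL at 16.9, 17 and 17.1. Their CV ran from 0.0525% to 0.275%, below their own counting error of 0.864% to 2.80%, and since they were picked as the lowest of 3711 values, their order does not rank them as steadier than others. In all, 314 of the 3711 genes lay below their counting error.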

How the data were processed

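RNA sequencing libraries of A549 cells titled Vector (3 of 6, grouped by title) were described. The authors deposited whole-number counts per gene and, in a second file, FPKM. The build was hg38, per the submitters' processing notes. Which aligner and counter were run, and whether strand was used, is not given in the sources here. The deposited FPKM equal count per kilobase of table length and per 1 constant per library, which differs from the total count by 4.10%, 4.90% and 0.502%, a scaling by the authors whose method is not given. All 58735 genes have the position, and as length the summed exons, of GENCODE release 29. No column of another series was present.

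Means, SDs, ranks and shares were computed in Python 3.11.15 with pandas 2.3.3. Spread was computed from counts with edgeR 4.0.16 (TMM, filterByExpr with minimum count 10 and minimum total 15, intercept only), which was tested on simulated counts. No group comparison was made, since only 1 group is described. Total counts of 16373203 to 18751815 make 3 counts the floor for genes listed at 0; floors and counting error cover counting only. Promoter windows came from RefSeq (GRCh38.p14) and coding sequences from GENCODE, aligned with Biopython 1.88.

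Genes named with values are the 5 markers, the 20 protein-coding genes, 5 long intergenic, 3 antisense and 3 processed pseudogenes of highest mean FPKM, list members, the 10 most and 5 least variable protein-coding genes of at least 10 FPKM, and CDKN2A with its 10 neighbours on each side. Members and lists were chosen with earlier results of these data known. MALAT1, NEAT1, structured RNAs, RPS28, RPL9, RPL9P9, HIST1H2BK, KRT10, LRRC75A-AS1, MT-RNR2 and RAN were added after their values were seen. All 371 list symbols matched; 30 share at least 20% of their exon length with another gene. Alternatives were another scaling (DESeq2 1.42.0 size factors, total counts, TPM), other filters, principal transcript length, GC levelling and leaving out each library. Some list members are counted in their lists but not reported or drawn singly here.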

Additional observations from a re-analysis of the deposited data

How the results depend on the processing

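No paired analysis was possible because only 1 group is described. Of the values that answer the questions above, the number of protein-coding genes at a mean FPKM of at least 1 stayed within 1.5 times of 9808 under every alternative run, from 9490 (1 FPKM in every library) to 11587 (TPM). The protein-coding share of counts was 98.5% with mitochondrial genes left out and 89.1% as a share of TPM, and without 1 library it ran from 97.2% to 97.3%. The mitochondrial share was 24.2% of TPM. The 100 highest genes took 25.9% of counts with mitochondrial genes left out. Of the 20 highest protein-coding genes by FPKM, 11 were among the 20 highest by CPM, 10 with mitochondrial genes left out and 13 with the length of the principal transcript, an alternative chosen after seeing the data. The common biological coefficient of variation without 1 library ran from 0.0910 to 0.103, and with other scalings and filters from 0.0961 to 0.0984. The median CV was 8.42% at 1 FPKM or more, 5.09% with GC content levelled, also chosen after seeing the data, and from 4.77% to 7.17% without 1 library. In TPM the 322 named genes at 1 FPKM or more were 3.02 to 3.07 times their FPKM. With principal transcript length 130 of 300 such genes stood more than 1.5 times higher, and the ratio over the 300 had a median of 1.38 and a maximum of 12.0 (VEGFA). Leaving out 1 library moved 1 of the 322 by more than 1.5 times: TMEM238 stood at 6.64 FPKM without replicate 3.

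Depth limits genes listed at 0 to the floor of 3 counts. Where exons are shared between genes, or copies are near-identical, levels cannot be split from these tables. Levels between genes depend on the length chosen. With 3 libraries, each SD is itself uncertain.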

Other observations

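Transcription factors reached these levels less often than protein-coding genes as a whole. Of 1548 genes that the deposited table gives a transcription factor family, 653 (42.2%) reached a mean of 1 FPKM and 164 (10.6%) reached 10 FPKM, beside 49.2% and 18.6% of all protein-coding genes. The highest was ID1, an inhibitor of basic helix-loop-helix factors, at 444, 421 and 487 FPKM, followed by the chromatin protein HMGA1 at 278, 296 and 312 and by YBX1, which also binds RNA, at 282, 278 and 288. ID3, CEBPB and ATF4 were the other 3 factors at 100 FPKM or more. The families differed: 38 of 48 bZIP factors reached 1 FPKM, 198 of 627 C2H2 zinc fingers, 53 of 191 homeobox factors and 0 of 16 POU factors, whose median was 0.0353 FPKM.

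Some abundant transcripts belong to none of the lists. CYP24A1, which breaks down vitamin D, stood at 479.9, 485 and 422 FPKM and ranked 69th among protein-coding genes, and IGFBP4, which binds insulin-like growth factors, at 757, 735 and 927. Over the autosomes and the X chromosome, the share of protein-coding genes at 1 FPKM or more ran from 36.8% on chromosome 21 and 37.6% on the X chromosome to 58.0% on chromosome 20, and the share of counts was highest on chromosome 19, at 9.39% ± 0.358 (SD, n = 3).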
